A study of Mus musculus with 2 samples.

Results

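The miR-29 family of the mouse comprises 4 microRNA hairpins, Mir29a, Mir29b-1, Mir29b-2 and Mir29c, out of 2199 miRNA hairpins in the gene annotation used, of which 1173 had reads. Its reads were chosen by sequence alone: every read of 18 nt or more that lay in sense and without mismatch in one of the 4 hairpins, and, for truncated forms, reads of 10 to 17 nt equal to the end of a mature 3p form. Small RNAs were sequenced from 2 libraries. The first came from Dicer null cells, in which both copies of Dicer, the ribonuclease that cuts the loop off a miRNA precursor, are lost (Dicer -/-). The second came from Dicer f/f cells, whose Dicer alleles are floxed and which the submitters treat as wild type. Both were immortalized clonal lines of mesenchymal stem cells of C57BL/6 mice, described as a fibroblast cell type of adult bone marrow and grown untreated to near confluence. How the null alleles were deleted is not stated in the labels. There was 1 line and 1 library per genotype, so clone, library and genotype cannot be told apart, no test between genotypes was possible, and every interval below covers counting error only.

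In the animal cell a miRNA gene is transcribed as a long primary RNA, from which Drosha cuts a hairpin. Dicer then removes the loop and leaves a short duplex of the 5p and 3p arms, one of which is kept by an Argonaute protein and directs it to mRNAs through its seed, the bases 2 to 8. Drosha thus sets the 5′ end of a 5p arm and the 3′ end of a 3p arm, and Dicer sets the 5′ end of the 3p arm and the 3′ end of the 5p arm. The guide strand of the miR-29 family is the 3p arm. It is known for repressing collagens and other matrix genes in fibroblasts, and also DNA methyltransferases and the survival factor Mcl1.

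The family's mature arms, from RefSeq (GRCm38.p6), show what the members share and where they part. Capitals mark the seed.
miR-29a-3p: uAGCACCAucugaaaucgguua
miR-29b-3p: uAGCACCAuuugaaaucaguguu
miR-29c-3p: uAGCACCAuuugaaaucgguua
miR-29a-5p: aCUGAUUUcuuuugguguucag
miR-29b-1-5p: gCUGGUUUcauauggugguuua
miR-29b-2-5p: cUGGUUUCacaugguggcuuagauu
miR-29c-5p: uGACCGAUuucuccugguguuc
The 3 forms of the 3p arm had the same seed, AGCACCA, which no other of the 1679 mature mouse miRNA names in that table held. Counting from 1 at the 5′ end, miR-29a-3p and miR-29c-3p differed only by C10U. miR-29b-3p and miR-29c-3p differed by A18G, G21U and U22A over their 22 shared positions, and miR-29b-3p is 1 base longer. The 5p arms differed from each other also within the seed. Mir29b-1 and Mir29b-2 give the same mature 3p form, so its reads could not be assigned to either gene.

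The 4 genes lie in 2 pairs. On GRCm38, Mir29a (chr6:31062660-31062747, minus strand) and Mir29b-1 (chr6:31063023-31063093, minus strand) are separated by 275 bases, and the first 2 bases of Mir29b-1 overlap the long noncoding RNA Gm27019. Mir29b-2 (chr1:195037040-195037120, plus strand) and Mir29c (chr1:195037547-195037634, plus strand) are separated by 426 bases and lie in the last exon of a transcript of the noncoding gene A330023F24Rik, opposite the 3′ UTR of Cd46. The hairpins that carried most reads are given here with both mature arms in capitals, because the results turn on where reads begin and end in them.
Mir29a: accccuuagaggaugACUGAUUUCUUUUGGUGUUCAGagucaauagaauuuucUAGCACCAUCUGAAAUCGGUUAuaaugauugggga
Mir29b-1: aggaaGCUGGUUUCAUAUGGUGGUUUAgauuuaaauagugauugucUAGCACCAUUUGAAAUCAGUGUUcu
Reads antisense to the hairpins numbered 0 in the null library and 0 in the f/f library, against a floor of 3 counts (0.477 and 0.302 CPM, counts scaled to a total of 1000000 reads). Of the host genes, A330023F24Rik had 0 null and 4 f/f reads outside its hairpins, and Gm27019 had 0 and 0.

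The null library held 6291599 reads and the f/f library 9943989. Levels are given as CPM over all reads of the library. Within reads of 18 nt or more, miRNA hairpins took up 2.17% of the null library and 59.6% of the f/f library. Fragments of the mRNA of Dicer1, the targeted gene, numbered 23 in null cells and 2 in f/f cells. Such fragments were more frequent in the null library for nearly every gene, and they do not check the deletion. The summed level of 10 mesenchymal miRNA hairpins was 5126 CPM in null and 212529 CPM in f/f cells, with none at 0 in either library. The sums for the other cell types were 93.3 and 150 CPM for haematopoietic, 45.3 and 3.72 CPM for epithelial, 2.07 and 33.5 CPM for endothelial, and 1.27 and 225 CPM for muscle hairpins. Single miRNAs carried some of these sums. Of 587 null and 1492 f/f haematopoietic reads, miR-451a-5p had 508 and 157, and miR-155-5p had 9 and 1290. Of 8 null and 2237 f/f muscle reads, miR-206-3p had 0 and 2236. Neural, liver and pluripotent hairpins stayed at or under 6.23 CPM in each library. Mir1a-1, Mir1a-2 and Mir429 were at 0 in both, the 3 Mir124a hairpins in null and Mir200a in f/f cells, and 5 of the 6 pluripotent hairpins in each library. The part of other cell types in the values below was not tested.

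The family was far lower in the null library, and the difference lay in its guide arm. In such bulk libraries, fewer cells that hold an RNA and less of it per cell cannot be told apart. All 4 hairpins together had 1517 reads (241 CPM) in null cells and 22301 reads (2243 CPM) in f/f cells, a level 9.30-fold lower in null (95% interval 8.83 to 9.80). The 3p arm alone had 27 reads (4.29 CPM) in null and 17017 reads (1711 CPM) in f/f cells, 399-fold lower (274 to 605). The 5p arm had 1490 reads (237 CPM) in null and 5284 reads (531 CPM) in f/f cells, 2.24-fold lower (2.12 to 2.38), a direction that turned under other scalings. The family thus consisted almost wholly of its 5p arm in null cells, at 98.2% of its reads (97.4 to 98.8), against 23.7% (23.1 to 24.3) in f/f cells. Over all other miRNAs the 5p share was 89.1% in null and 70.2% in f/f cells, so the family had a lower 5p share than the other miRNAs in f/f cells and a higher one in null cells. Within miRNA reads, the family made up 1.11% in null and 0.376% in f/f cells.

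miR-29b-3p, the joint product of Mir29b-1 and Mir29b-2, had the highest level of the family in f/f cells. It had 6 reads (0.954 CPM) in null cells and 13345 reads (1342 CPM) in f/f cells, 1407-fold lower in null (646 to 3835). miR-29a-3p had 12 reads (1.91 CPM) in null cells and 3359 reads (338 CPM) in f/f cells, 177-fold lower (101 to 343). Of these 12 null reads, 10 began upstream of the mature start, in the loop or 5p arm. Reads that began within 2 nt of that start numbered 2 in null and 3315 in f/f cells, 1049-fold lower (290 to 8663). miR-29c-3p had 2 reads (0.318 CPM) in null cells and 257 reads (25.8 CPM) in f/f cells, 81.3-fold lower (22.3 to 675). All 3 guide forms were near the floor of the null library, and their order there rests on single reads. In f/f cells the level of miR-29b-3p was 3.97 times that of miR-29a-3p (3.83 to 4.13), and that of miR-29a-3p was 13.1 times that of miR-29c-3p (11.5 to 14.9).

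The 5p arms of the chromosome 6 pair, the passenger strands, kept the most reads in null cells. miR-29b-1-5p had 860 reads (137 CPM) in null and 3161 reads (318 CPM) in f/f cells, 2.33-fold lower in null (2.16 to 2.51). miR-29a-5p had 624 reads (99.2 CPM) in null and 2032 reads (204 CPM) in f/f cells, 2.06-fold lower (1.88 to 2.26). This direction depended on the scaling: per reads that match a transcript both were higher in null, with log2 ratios of null to f/f of 0.54 for miR-29b-1-5p and 0.71 for miR-29a-5p, and per reads of 18 to 23 nt these were 0.21 and 0.38. miR-29a-3p, miR-29b-3p and miR-29c-3p kept their direction under each of these scalings. In f/f cells miR-29a-3p and miR-29b-1-5p were close, at a ratio of 1.06 (1.01 to 1.12).

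The remaining species came from few reads. miR-29c-5p had 3 null and 67 f/f reads, 14.1-fold lower in null (4.63 to 70.2), and miR-29b-2-5p had 3 and 24. Longer 3p reads that fit one miR-29b hairpin alone numbered 0 in null and 54 in f/f cells for Mir29b-2, at least 11.4-fold lower in null against a floor of 3 counts. For Mir29b-1 such reads numbered 7 in null and 2 in f/f cells. Counted by locus, reads that fit the chromosome 6 pair alone numbered 1503 in null and 8554 in f/f cells (99.1% and 38.4% of the family). Reads of the chromosome 1 pair alone numbered 8 in null and 402 in f/f cells. The other reads, those of miR-29b-3p, fit both pairs and could not be assigned to either.

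**Figure D1:**
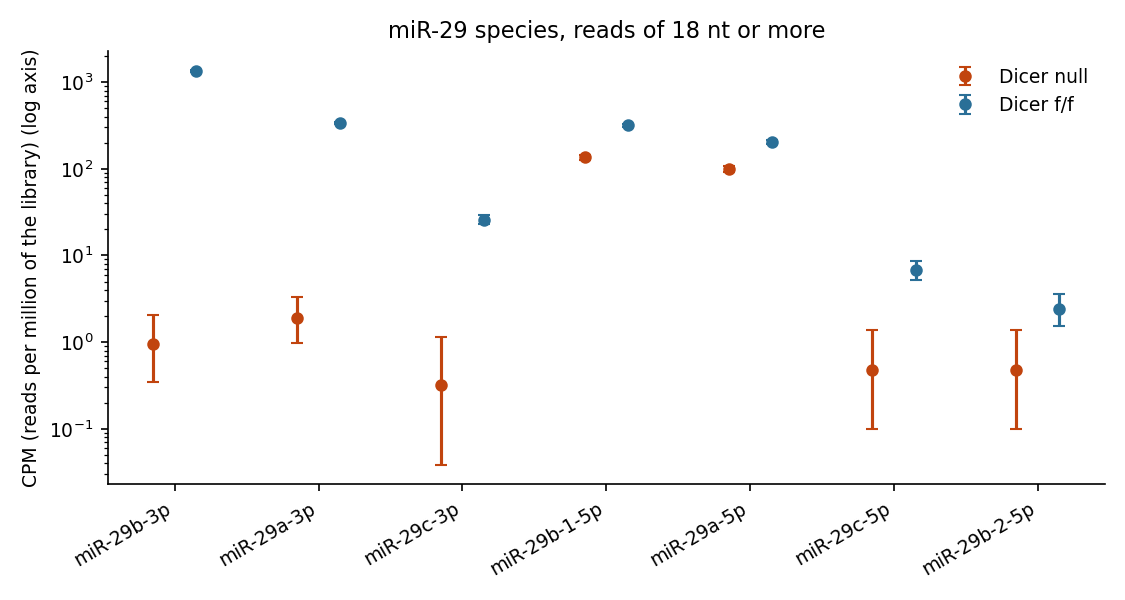
CPM (reads scaled to a total of 1000000, log axis) of 7 miR-29 species in the Dicer null library (left point of each pair) and the Dicer f/f library (right point), with exact 95% Poisson intervals of the count. In null cells the 3p forms lie near the floor of 0.477 CPM and miR-29b-1-5p and miR-29a-5p at 137 and 99.2 CPM, whereas in f/f cells miR-29b-3p is the highest at 1342 CPM.

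A low null level was the rule among miRNAs. A species is here an arm with the set of hairpins its reads fit, and 314 species reached 100 f/f reads. Of these, 87.9% were more than 2-fold lower in null and 75.5% more than 10-fold lower. That depth was reached by 5 of the 9 miR-29 species, and a minimum in f/f cells favours species that are lower in null, in the family as among the rest. Of these 5, 5 were more than 2-fold lower and 3, the 3p forms, more than 10-fold lower. The median log2 ratio was -5.65 over all 314 species and -6.35 over the 5 of the family. Among 3p species it was -7.06 (141 species), next to -10.46 for miR-29b-3p, -7.47 for miR-29a-3p and -6.35 for miR-29c-3p. Among 5p species it was -4.70 (173 species), next to -1.22 for miR-29b-1-5p and -1.04 for miR-29a-5p. The miR-29a-3p value counts all 12 of its null reads, 10 of which began upstream of the mature start. By f/f level the family took ranks 57 (miR-29b-3p), 89 (miR-29a-3p), 93 (miR-29b-1-5p), 120 (miR-29a-5p) and 244 (miR-29c-3p) of 314.

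The species nearest to miR-29a-3p in f/f level and log2 ratio, over the 2 libraries, were miR-149-5p with 13 null and 3049 f/f reads, miR-301-3p with 9 and 2465, and miR-362-5p with 15 and 2975. Their distances in that plane were 0.29, 0.45 and 0.53 log2 units. The miR-29a-3p ratio used for these distances also counts the 10 null reads that began upstream of the mature start.

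The reads left in null cells were longer than mature miRNAs. Dicer products are close to 22 nt, and reads of 24 nt or more made up 75.0% of family reads in null (72.8 to 77.2) and 14.6% in f/f cells (14.2 to 15.1). For the 5p arm alone the shares were 75.5% in null (73.2 to 77.7) and 60.4% in f/f cells (59.1 to 61.7). The f/f value stood apart from that of other miRNAs: their 5p reads reached 24 nt or more in 75.3% of cases in null but only 3.44% (3.43 to 3.46) in f/f cells. The long 5p reads in f/f cells were of both genes of the chromosome 6 pair. For miR-29b-1-5p the long share was 69.0% in null (65.7 to 72.0) and 69.2% in f/f cells (67.5 to 70.8), so its intervals overlapped. For miR-29a-5p it was 84.3% in null (81.2 to 87.1) and 48.6% in f/f cells (46.4 to 50.8). Of 3p reads, 13 of 27 in null and 74 of 17017 in f/f cells were that long.

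Restricting reads to 18 to 23 nt, still per all reads of the library, gave larger folds for both arms. At that length the 3p arm had 14 null and 16943 f/f reads and was 766-fold lower in null (456 to 1401), and the 5p arm had 365 and 2093 reads and was 3.63-fold lower (3.24 to 4.07). The 3p interval overlapped that of all 3p reads of 18 nt or more (274 to 605), so a wider gap between the arms was not shown. Other miRNAs of 18 to 23 nt were 195-fold lower in null for 3p and 85.4-fold lower for 5p arms. At 18 to 23 nt miR-29a-5p was 6.75-fold lower (5.48 to 8.39) and miR-29b-1-5p 2.31-fold lower (2.02 to 2.66). Among reads of 24 nt or more, miR-29a-5p had 526 null and 987 f/f reads, a level 1.19-fold lower in null (1.07 to 1.32). miR-29b-1-5p had 593 null and 2186 f/f reads at that length, 2.33-fold lower in null (2.13 to 2.56), so its intervals at both lengths overlapped and those of miR-29a-5p did not.

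**Figure D2:**
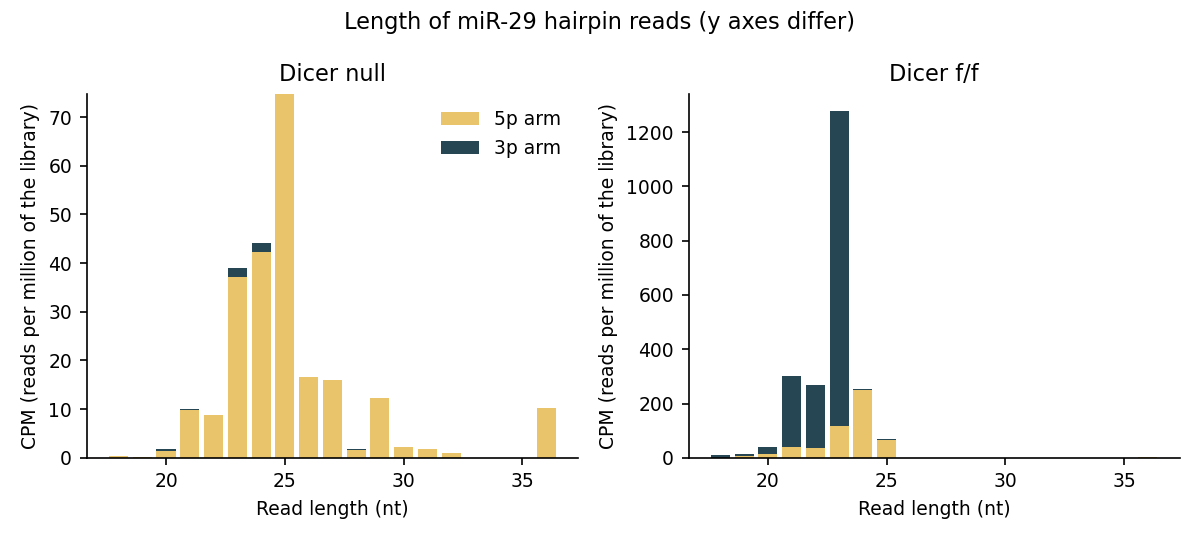
CPM by read length (18 to 36 nt) of the 4 miR-29 hairpins, split by arm, in the Dicer null library (left) and the Dicer f/f library (right), whose y axes differ. Null reads peak at 25 nt and are nearly all 5p, while f/f reads peak at 23 nt and are mostly 3p, with the 5p reads at 23 to 25 nt.

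The commonest form of each species gave the ends exactly. For miR-29b-3p it was the annotated 23-nt form, with 5 null and 11318 f/f reads, or 84.8% of the species in f/f cells. For miR-29a-3p the form 1 nt shorter than annotated led in f/f cells, with 1 null and 1878 f/f reads, ahead of the annotated 22-nt form with 0 and 870. For miR-29c-3p the annotated form had 0 null and 124 f/f reads and the form 1 nt shorter 0 and 116. The 5′ end, which sets the seed, was the annotated one in 98.0% of f/f reads of miR-29b-3p, 96.9% of miR-29c-3p and 84.2% of miR-29a-3p (82.9 to 85.4). A start 1 nt earlier, which shifts the seed by 1 base, was found in 11.6% of f/f reads of miR-29a-3p and 0.659% of those of miR-29b-3p.

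Many of the few null 3p reads did not begin at the mature start. Of the 12 null reads of miR-29a-3p, 2 began within 2 nt of the mature start, and the other 10 began further upstream, in the loop or 5p arm. Of the 6 null reads of miR-29b-3p, 5 were the 23-nt mature form and 1 began 1 nt earlier. However, a miR-29b read that begins more than 2 nt before the mature start fits one hairpin alone and is counted apart. All 7 null 3p reads of Mir29b-1 alone were of that kind, 4 beginning at position 35 and 3 at position 43 of the hairpin, against a mature start at 47. Of f/f reads that fit Mir29a, 3315 began within 2 nt of that start. Counted so, the Dicer-cut 5′ end of miR-29a-3p was 1049-fold less frequent in null (290 to 8663).

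The 5p arms kept their start and lost their end in null cells. miR-29b-1-5p began at the same base in 99.4% of reads in null and 99.4% in f/f cells. Its commonest f/f form ran 2 nt past the annotated end, gctggtttcatatggtggtttaga (24 nt), with 231 null and 2141 f/f reads, or 26.9% and 67.7% of the species, against 40 and 189 reads for the annotated 22-nt form. The forms 1 and 2 nt longer still had 191 null and 30 f/f reads (25 nt) and 88 null and 8 f/f reads (26 nt). miR-29a-5p began at the same base in 90.5% of null and 95.6% of f/f reads. Its 23-nt form had 45 null and 727 f/f reads. Its 25-nt form, actgatttcttttggtgttcagagt, had 277 null and 638 f/f reads and led in null cells with 44.4% of the species, and its 29-nt form had 77 null and 0 f/f reads.

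Reads that ran on into the loop of the chromosome 6 hairpins had higher levels in null cells per all reads. Reads of Mir29b-1 from the 5p start that reached 3 nt or more past the annotated 5p end numbered 363 in null (57.7 CPM) and 45 in f/f cells (4.53 CPM), 12.7-fold higher in null (9.34 to 17.8). For Mir29a they numbered 519 (82.5 CPM) and 700 (70.4 CPM), 1.17-fold higher (1.04 to 1.31). The 25-nt form of miR-29a-5p, which ends 3 nt past the annotated end, made up 277 of these null and 638 of these f/f reads. Reads over the middle of the loop numbered 81 in null and 38 in f/f cells for Mir29a, 3.37-fold higher (2.26 to 5.09). For Mir29b-1 they numbered 25 and 2, 19.8-fold higher (4.93 to 172). Scaling per snoRNA and snRNA reads shifts each log2 ratio by -2.12, which turns the direction of both Mir29a differences, at log2 0.23 and 1.75, and of neither Mir29b-1 difference, at 3.67 and 4.30. Reads of 36 nt, the longest length in the files and so possibly the start of longer RNAs, were of the 5p arm, with 44 null and 38 f/f reads for miR-29a-5p and 20 and 2 for miR-29b-1-5p.

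**Figure D3:**
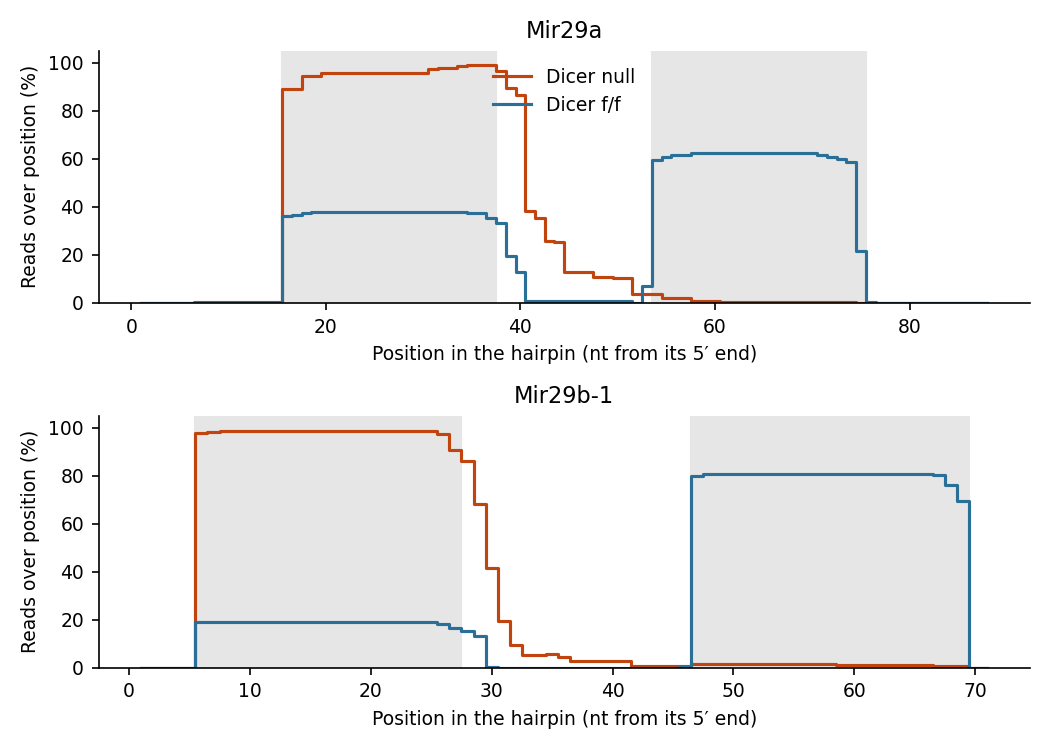
Percentage of the reads fitting Mir29a (upper panel) or Mir29b-1 (lower panel) that cover each hairpin position, in the Dicer null library (red) and the Dicer f/f library (blue), with the annotated mature arms shaded. Null reads start at the 5p arm's first base, run past its end into the loop and leave the 3p arm nearly bare, while f/f reads cover both arms.

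Single bases added after the mature end were found in f/f cells. The 23-nt form of miR-29b-3p with one more base ended in A in 214 reads and in G in 95, neither of which is encoded in a miR-29b hairpin, in U in 46, as encoded in Mir29b-2, and in C in 2, as encoded in Mir29b-1. The null library held 0 of each, but it had only 5 reads of the 23-nt form. In f/f cells the reads with A were 1.89% as many as those of that form, so 5 null reads cannot show whether tails were lost. A U-tailed read can be untemplated or from Mir29b-2, so these reads do not fix the shares of the 2 genes.

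Reads of 10 to 17 nt put miR-29b-3p below the joint count of miR-29a-3p and miR-29c-3p in f/f cells. Those equal to the end of a mature 3p form numbered 6 in null (0.954 CPM) and 35514 in f/f cells (3571 CPM), 3745-fold lower in null (1720 to 10205). They outnumbered the 17017 f/f reads of the 3p arm of 18 nt or more. Reads equal to the start of a mature 3p form numbered 0 in null and 31 in f/f cells. Of the f/f end reads, 32171 were one 12-nt sequence, which had an 11-nt neighbour ending 1 nt earlier:
12-nt form: tgaaatcggtta
11-nt form: tgaaatcggtt
The first had 6 null and 32171 f/f reads, or 0.0218% of all 12-nt reads in null and 54.6% (54.2 to 55.0) in f/f cells. The second had 18 null and 27071 f/f reads, or 0.0206% of all 11-nt reads in null and 52.6% in f/f cells. Both start at base 11 of the mature form, right after the base at which miR-29a-3p and miR-29c-3p differ, so they fit both. A 12-nt sequence can fit many places in a genome by chance, and places outside the miRNA hairpins were not searched. Among the hairpins of the annotation, the first was found in Mir29a and Mir29c.

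Longer short reads told the members apart. End reads of 13 to 17 nt that fit miR-29a-3p alone numbered 0 in null and 2366 in f/f cells, at least 499-fold lower in null against a floor of 3 counts. Those of miR-29c-3p alone numbered 0 and 11. For miR-29a-3p nearly all were the 16-nt read catctgaaatcggtta, with 0 null and 2329 f/f reads. End reads of miR-29b-3p numbered 0 in null and 966 in f/f cells, at least 204-fold lower, and 928 of these in f/f cells were the 16-nt read atttgaaatcagtgtt. The share of reads ending 1 nt early was 45.7% (45.3 to 46.1) among the 11- and 12-nt forms in f/f cells. It was 68.3% (66.6 to 70.1) among 21- and 22-nt reads of miR-29a-3p and 48.3% (41.9 to 54.9) for miR-29c-3p.

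Counting the short reads changed the order of miR-29b-3p and the joint count of miR-29a-3p and miR-29c-3p in f/f cells. Most of the added reads were the 11- and 12-nt forms, which start at base 11, lack the seed and fit both miRNAs. No single guide form can be said to lead by them. With end reads within 1 nt of the mature end added to those of 18 nt or more, miR-29a-3p and miR-29c-3p together had 42 reads (6.68 CPM) in null and 67049 reads (6743 CPM) in f/f cells. miR-29b-3p, so counted and with the longer 3p reads of Mir29b-1 alone (7 null and 2 f/f) and Mir29b-2 alone (0 and 54), had 13 reads (2.07 CPM) in null and 14438 reads (1452 CPM) in f/f cells. At 18 nt or more miR-29b-3p was the higher one in f/f cells, and with the short reads it was the lower one. The gel cut is stated as 15 to 50 nt, so inserts of 10 to 12 nt lie under it, although the files hold reads of 5 to 36 nt.

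**Figure D4:**
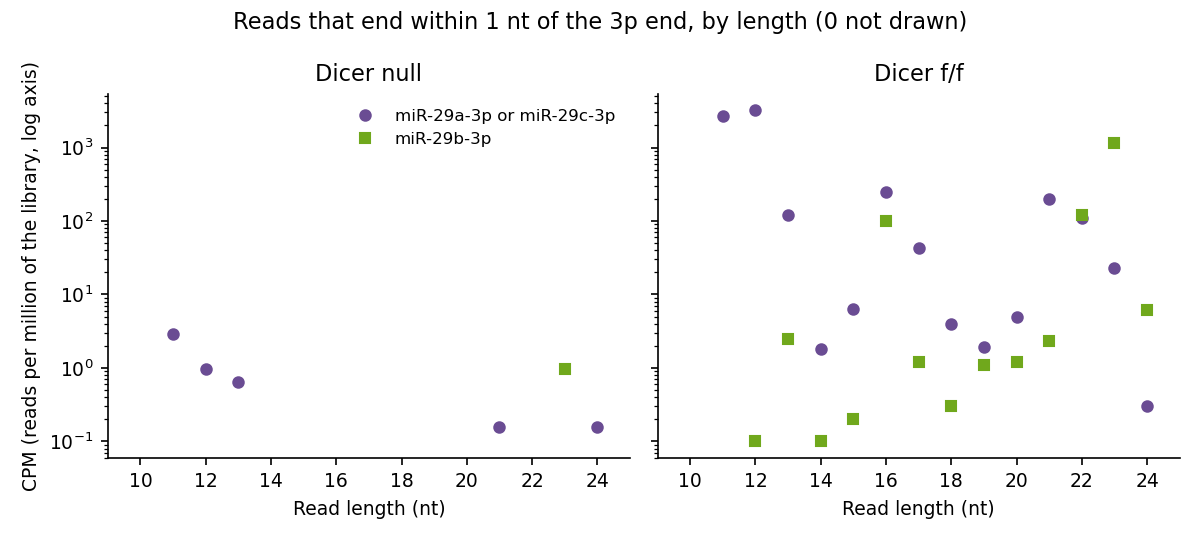
CPM (log axis) by length of reads of 10 to 24 nt that end within 1 nt of the end of miR-29a-3p or miR-29c-3p (purple) or miR-29b-3p (green), in the Dicer null library (left) and the Dicer f/f library (right) on a shared y axis. In f/f cells miR-29a-3p or miR-29c-3p reads peak at 11 and 12 nt and miR-29b-3p reads at 23 nt, and the null library has few reads at any length. Lengths with 0 reads are not drawn.

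Few other miRNAs had such short end reads. Among 144 mature miRNAs with at least 1000 f/f reads, short reads made up a median of 2.79% of the reads that reach the 3′ end. The share passed 50% in 6 of them (4.17%): miR-29c-3p with 99.5%, through the reads it shares with miR-29a-3p, miR-425-5p with 96.5%, miR-29a-3p with 94.8%, let-7d-3p with 91.1%, miR-100-5p with 91.0% and miR-574-3p with 84.0%. miR-29b-3p had 6.95%. This minimum counts the short reads themselves, and 4 of the 6, miR-29c-3p, miR-425-5p, let-7d-3p and miR-574-3p, reached it only through them. With 1000 reads of 18 nt or more required, a minimum chosen after seeing the data, 2 of 139 miRNAs (1.44%) passed 50%, miR-29a-3p and miR-100-5p, and the median was 2.41%. For the 6, the mature form is shown with the 6 letters before the first base of the commonest short form in capitals. Below them, miR-29b-3p and miR-99a-5p, both under 50%, are marked at the place that corresponds to those of miR-29c-3p and miR-100-5p; the commonest short form of miR-29b-3p begins elsewhere, at base 8.
miR-425-5p: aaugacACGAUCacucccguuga
miR-29a-3p: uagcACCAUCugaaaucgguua
miR-29c-3p: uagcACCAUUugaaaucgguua
let-7d-3p: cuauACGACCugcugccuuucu
miR-574-3p: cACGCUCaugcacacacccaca
miR-100-5p: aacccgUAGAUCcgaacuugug
miR-29b-3p: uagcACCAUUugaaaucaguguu
miR-99a-5p: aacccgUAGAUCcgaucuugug
The 6 letters before the short form of miR-425-5p, ACGAUC, were taken for comparison after the values were seen and come from one of the high places, so the counts that follow describe these miRNAs and support no cause. Only start places with 6 letters of the mature form before them were counted, so none lies before base 7. Short forms that begin earlier, such as that of miR-34b-3p at base 5 with 219 f/f reads, are left out. Of the 1154 places so counted in the 144 miRNAs, 1 had all 6 letters (miR-425-5p itself) and 91.0% of its reads started there. Of the 4 places with 5 letters alike, 3 were above 50%, among them miR-29a-3p with 90.3%, which counts the reads shared with miR-29c-3p, and the fourth, in let-7a-1-3p, had 0.437%. Of the 27 places with 4 letters alike, 2 were, miR-100-5p and, through its shared reads, miR-29c-3p. Of the 1122 places with 3 or fewer, 0 were, and the highest had 8.48%. miR-99a-5p has the same 12 letters as miR-100-5p before that place. Of its f/f end reads of 10 to 17 nt, 407 started there, beside 21035 reads of 18 nt or more. For miR-100-5p these numbers were 16240 and 1625. miR-29b-3p has the first 17 bases of miR-29c-3p, and 26 of its f/f reads (0.174%) started at base 11. As background, ACGAUC is also how the 5′ adapter of Illumina small RNA kits ends. No source used here gives the trimming tool or its settings, and the part of adapter removal in the short reads was not tested.

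**Figure D5:**
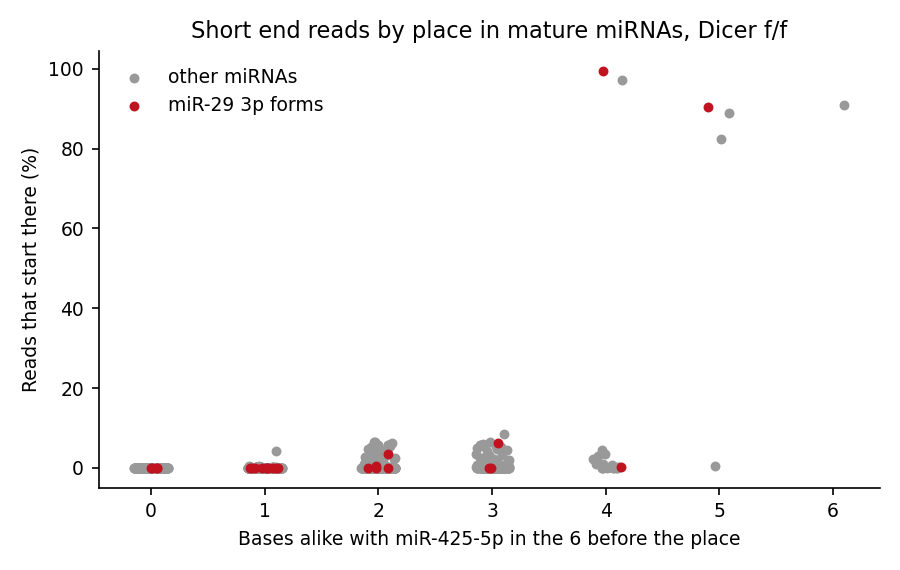
For 1154 start places of short reads in 144 mature miRNAs, none before base 7, the percentage of reads reaching the 3′ end in the Dicer f/f library that start there, against the number of letters alike with ACGAUC in the 6 before the place (points are spread sideways for sight). For miR-100-5p at base 13, 17509 reads were counted, above its 16381 end reads of 10 to 17 nt. Its point is therefore too high. The miR-29 3p forms are in red, and places above 50% have 4 to 6 letters alike, whereas those with 3 or fewer reach at most 8.48%.

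Fragments of mRNAs known as miR-29 targets were looked up in the same libraries. Such fragments are degradation pieces, not mRNA levels, and across protein-coding genes with at least 20 reads in all they were more than 2-fold higher in null for 98.8% of 3383 genes, with a median log2 ratio of 3.63. Of 18 matrix genes, 10 had that many reads and 10 were more than 2-fold higher in null, with a median of 4.24. Of 6 genes of DNA methylation it was 3 of 3 measured (median 4.003), and of 6 growth and survival genes 4 of 4 (median 4.81). The counts are those of nearly every gene, so they single out no target. The collagen chains Col1a1, Col1a2 and Col3a1 had 155, 546 and 199 reads in null cells, against 27, 51 and 2 in f/f cells. Col5a1 had 193 null and 23 f/f reads, Col5a2 150 and 22, the matrix protein gene Sparc 167 and 13, and the collagen chaperone gene Serpinh1 108 and 7. Tet3, an enzyme that oxidizes methylcytosine, had 106 null and 10 f/f reads, and Mcl1, which protects from apoptosis, 146 and 6.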

How the data were processed

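Small RNA libraries of 15 to 50 nt, cut from a 15% gel, were sequenced per the labels' protocols. The authors deposited raw counts of each distinct read per library, without coordinates. The build was mm9, per the submitters' processing notes, and was not used here; no source used here gives the trimming tool or the aligner. Reads were matched in sense and without mismatch to GENCODE M21 (GRCm38) hairpins and assigned to an arm by the side of the hairpin's middle on which their midpoint lay; reads fitting several hairpins stayed joint species. The total counts were 6291599 (null) and 9943989 (f/f). Ratios of CPM (counts scaled to 1000000 reads) carry exact conditional 95% intervals, shares Clopper-Pearson intervals and levels Poisson intervals. These cover counting error only, since PCR reads without molecular identifiers are not independent molecules. A count of 0 was set against a floor of 3 counts. All species of the 4 hairpins are named, with the 3 species most like miR-29a-3p and the targets with at least 100 reads in either library. The family, the target and marker lists and the rules were chosen with earlier results of these data known. Gene medians used a pseudocount of 0.5 reads. Matching and intervals were tested on simulated data (Python 3.11.15, numpy 2.4.6, scipy 1.17.1, matplotlib 3.10.9). Alternatives were 4 other denominators, 2 length windows, removal of sequences seen once, and a match without the last 3 nt.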

Additional observations from a re-analysis of the deposited data

How the results depend on the processing

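No paired analysis was possible because there is 1 library per genotype. The log2 ratio of null to f/f kept its direction for the family and its 3p forms under each alternative run. Per reads of 18 nt or more, per transcript-matched reads, per snoRNA and snRNA reads and per reads of 18 to 23 nt, which shift every log2 ratio by 0.13, 1.75, -2.12 and 1.43, the family stood at -3.08, -1.46, -5.34 and -1.79 against -3.22 per all reads. Limited to reads of 18 to 23 nt it was -4.99 and to 20 to 24 nt -4.37. For miR-29a-3p, main value -7.47, it was -5.71 per transcript-matched, -9.59 per snoRNA and snRNA and -6.04 per 18 to 23 nt reads, -8.47 for reads of 18 to 23 nt and -9.02 when the last 3 nt were left out of the match. For miR-29b-3p, main value -10.46, it was -8.70, -12.58 and -9.03 under the same 3 denominators. The miR-29c-3p ratio moved by less than its counting interval, which 2 null reads leave wide; left without the last 3 nt it had 0 null reads and gave no value, as did short end reads of 15 to 17 nt. The direction of the 5p arms reversed per transcript-matched reads (0.54 for miR-29b-1-5p, 0.71 for miR-29a-5p) and per reads of 18 to 23 nt (0.21 and 0.38). This direction thus depends on the denominator, and these data do not settle it. The null share of long reads was 42.6% at 20 to 24 nt and 0% at 18 to 23 nt by construction, against 75.0%. Short end reads allowed to end within 1 nt of the annotated end, an alternative chosen after seeing the data, gave -10.51 against -11.87. The number of f/f miRNAs with mostly short end reads fell to 2, against 6, when the minimum of 1000 reads left short reads out, also chosen after seeing the data. The 27 null 3p reads limit every 3p ratio, and with 1 clone per genotype the spread between lines is unknown.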
